A study of Homo sapiens with 30 samples.

Results

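Retinoic acid is the active form of vitamin A, and 9 genes that take up its precursor, make it, break it down, carry it or bind it were read across the differentiation of human embryonic stem cells into cardiomyocytes. They were STRA6, DHRS3, ALDH1A2, CYP26A1, CYP26B1, CYP26C1, CRABP1, CRABP2 and RARB, chosen by symbol as 9 of the 41495 genes of the time-course table, and all 9 symbols were found. All cells came from H7, an established human embryonic stem cell line, with no genetic change named in the labels. The undifferentiated cells (hESC) were grown in E8 medium. Differentiation then ran in RPMI1640 with B27 minus insulin and 12 µM CHIR99021, a GSK3 inhibitor that turns on WNT signalling, for 24 hours, and afterwards with 5 µM IWP4, an inhibitor of WNT secretion, for 2 days. From then on the cells were kept in RPMI1640 with standard B27. The B27 supplement contains a vitamin A ester, and the name of the earlier form leaves out only insulin. The labels name no added retinoic acid in any group. Time points were hESC, D1, D2, D3, D4, D5, D6, D8, D10, D15 and cardiomyocytes of day 31 purified on a Percoll density gradient. Sorted cells of D3 and D4 complete the design. On D3, cells positive for the receptor ROR2 (primitive mesoderm in the submitters' naming) were set against ROR2-negative cells. On D4, cells positive for both ROR2 and PDGFRa (cardiac mesoderm in that naming) were set against ROR2-positive, PDGFRa-negative cells. Each of the 15 groups has 2 libraries from the 1 line.

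Retinol reaches cells on a carrier protein, and STRA6 is the membrane receptor that takes it in. Retinol dehydrogenases such as RDH10 oxidise retinol to retinal, DHRS3 reduces retinal back to retinol, and aldehyde dehydrogenases such as ALDH1A2 turn retinal into retinoic acid. CRABP1 and CRABP2 carry retinoic acid in the cytoplasm, the CYP26 hydroxylases degrade it, and receptors of the RAR family, RARB among them, bind it on DNA together with RXR partners. In the embryo this signal patterns the heart field along its length, with atrial and inflow progenitors exposed to more of it, and ALDH1A2 is a classical gene of the epicardium. RARB, CYP26A1, DHRS3 and CRABP2 are known targets of the receptors.

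RAR and RXR are known to bind repeats of a short motif, so the promoters of the genes were searched for such a repeat, and the promoters that hold one are shown. The search covered RefSeq promoters on GRCh38.p14, from 250 bases before to 50 bases after each start, on both strands. The motif was taken in 4 forms, AGGTCA as the textbook form, AGTTCA as well as GGGTCA, and also GGTTCA. A repeat was any form followed by any form in the same direction after a spacer of 5 bases. It was found in 31 of 35116 promoter windows (0.0883%). All 9 genes matched the table, with 20 windows in all, and 2 of the 20 held the repeat, 1 of the 4 windows of RARB and 1 of the 2 windows of CYP26A1. The 250 bases upstream of each of these starts are given 5′ to 3′ on the plus strand, on which both genes lie, with the motifs in capitals. The RARB stretch is chr3:25428013-25428262 and the CYP26A1 stretch is chr10:93073643-93073892.
RARB: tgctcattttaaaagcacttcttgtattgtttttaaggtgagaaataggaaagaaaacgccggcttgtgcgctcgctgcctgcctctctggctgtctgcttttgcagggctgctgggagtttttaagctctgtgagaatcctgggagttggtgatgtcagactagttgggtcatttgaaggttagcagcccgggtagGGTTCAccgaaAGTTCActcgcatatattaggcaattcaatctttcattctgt
CYP26A1: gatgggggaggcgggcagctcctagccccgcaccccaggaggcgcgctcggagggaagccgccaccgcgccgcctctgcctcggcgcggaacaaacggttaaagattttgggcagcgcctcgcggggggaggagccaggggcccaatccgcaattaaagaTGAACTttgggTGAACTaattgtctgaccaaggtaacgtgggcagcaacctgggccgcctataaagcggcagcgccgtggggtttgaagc
In RARB the repeat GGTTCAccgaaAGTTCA reads along the gene, from 53 to 37 bases upstream of the start. In CYP26A1 it lies on the opposite strand, from 90 to 74 bases upstream, and reads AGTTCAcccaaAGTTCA there. Over their 17 bases the repeats differ at 2 positions, G1A and G9C, counted from 1 at the 5′ end of the repeat with the RARB base first. The same motifs with a spacer of 1 base occurred in 46 windows (0.131%) and with a spacer of 2 bases in 14 (0.0399%), none of them in these 9 genes. A match is a description of the letters and shows neither binding nor use, and no binding was measured in these files.

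**Figure D1:**
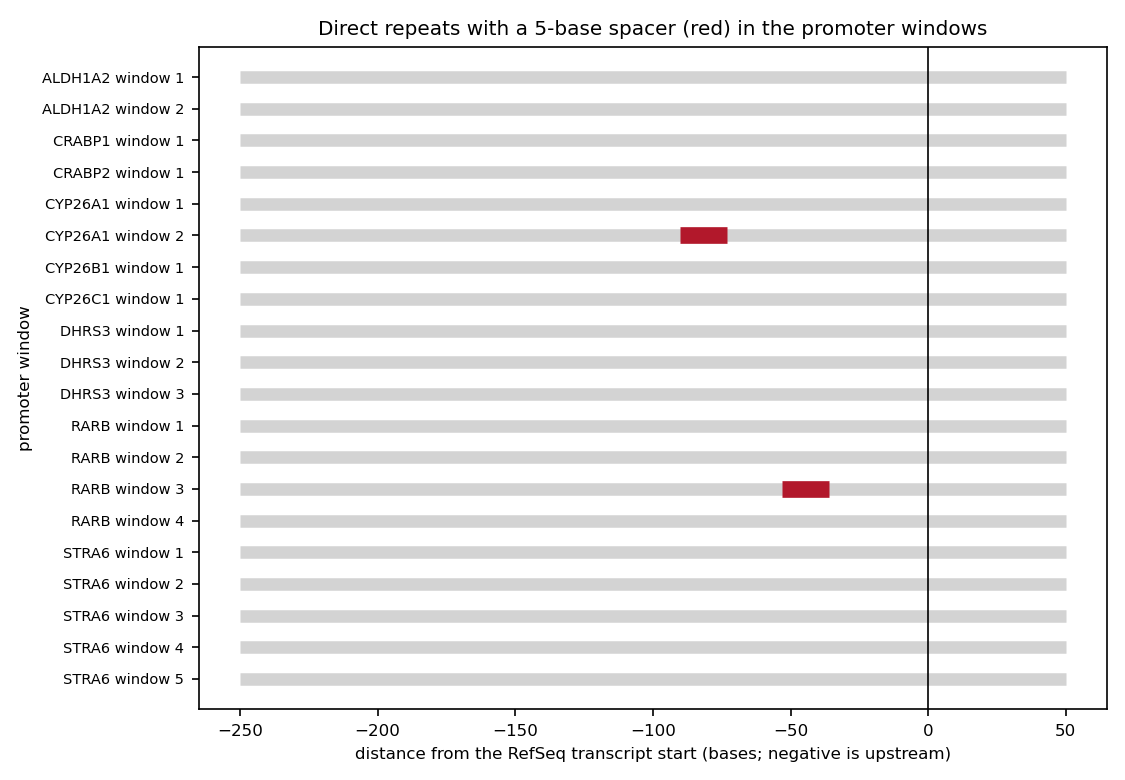
Promoter windows of the 9 genes, drawn as grey bars against the distance in bases from the RefSeq start, with each direct repeat of the motif at a spacer of 5 bases in red. Of 20 windows, 1 of CYP26A1 and 1 of RARB hold a repeat, at 90 to 74 and 53 to 37 bases upstream.

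Expression is given in FPKM, fragments counted relative to transcript length and to all mapped fragments, a unit in which genes can be ranked within a column. Each time point is 1 deposited value over both libraries, so there is no spread between replicates, no test of the time course, and no way to tell whether the libraries came from separate cultures. A difference was called when log2(FPKM + 1) differed by at least 1, a 2-fold difference of FPKM + 1, and the share of all genes passing the same threshold is given beside the counts as the background. This ran over 21715 genes that reached 1 FPKM in at least 1 time point. Of the 9 genes, 8 did, all but CYP26C1. Between their highest and lowest time points 8 of 8 were at least 2-fold apart, as were 84.7% of all kept genes. CYP26B1 passed only just, with a span of 1.01 between 0.330 FPKM at D3 and 1.69 in the cardiomyocytes. Over the whole course a difference somewhere therefore does not mark these genes out. Without hESC, D15 and the cardiomyocytes it was 7 of 8, beside 54.7%, and with so few genes this was not tested. Fewer cells of a type and less RNA per cell cannot be told apart in such bulk samples.

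Pluripotency and cardiac muscle markers followed the labels, but not every marker did. The summed level of 5 pluripotency genes went from 2580 FPKM in hESC to 4.62 in the cardiomyocytes. That of 6 cardiac muscle genes went from 14.1 to 9018, although TTN is listed at 0 at D15 and in the cardiomyocytes. TUBB3, of the neural list, stood at 190 FPKM at D2, 0.0433 at D3 and 162 at D4, and at 0 at D8 and D15. The 6 fibroblast and stroma genes still summed to 945 FPKM in the purified cardiomyocytes. Columns summed to between 617580 FPKM (D15) and 1429860 FPKM (hESC), with 43.0% (hESC) to 76.1% (D1) of that sum in protein-coding genes. The most frequent ratio of low values to those of D1 is a rough guide to relative depth, a larger ratio going with fewer mapped fragments. It was largest for hESC (1.61) and D15 (1.88). The D3 column stood 2-fold or more below both its neighbours for 349 genes (1.61% of those kept), DHRS3 and STRA6 among them.

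**Figure D2:**
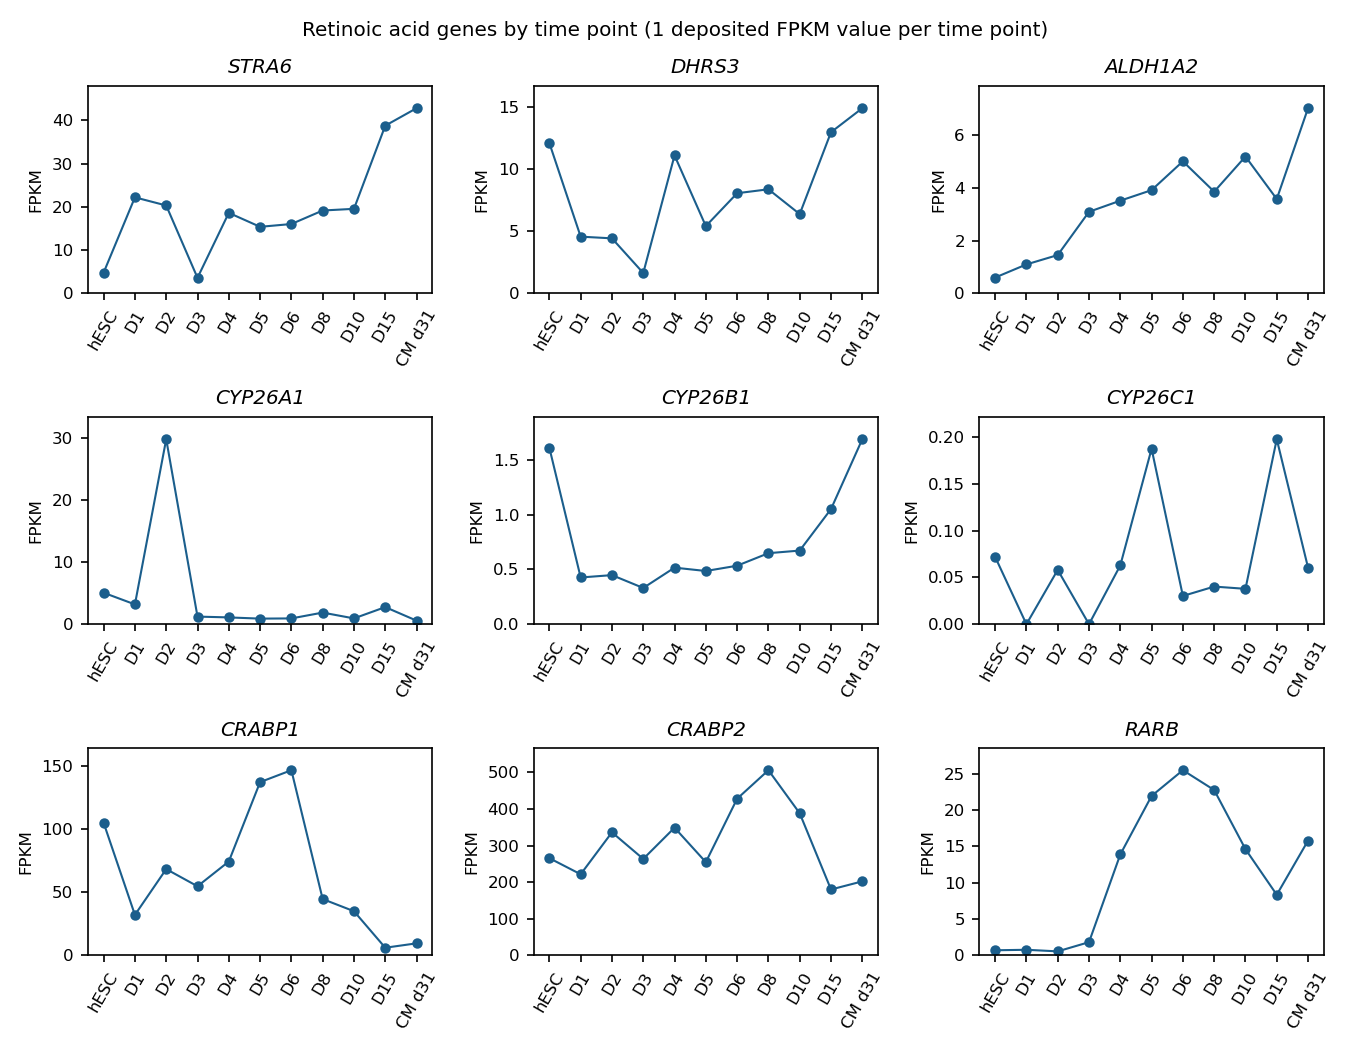
Deposited FPKM (vertical axis, a linear scale of its own for each gene) of the 9 retinoic acid genes at the 11 time points, 1 point per time point and no error bars because the libraries were pooled. CYP26A1 peaks at 29.9 FPKM at D2 alone, RARB is at 1.80 at D3 and 25.5 at D6, and CRABP1 is lowest at D15, at 5.94.

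Uptake was read from STRA6, the retinol receptor. STRA6 stood at 4.76 FPKM in hESC, 22.2 at D1, 20.3 at D2, 3.56 at D3, 18.6 at D4, 15.4 at D5, 16.0 at D6, 19.1 at D8, 19.5 at D10, 38.8 at D15 and 42.8 in the cardiomyocytes. It was therefore high on every day of differentiation but D3, and highest at the end. On the log2(FPKM + 1) scale it was 2.01 higher at D1 than in hESC, 2.22 lower (a difference of -2.22) at D3 than at D2, and 2.1 higher at D4 than at D3. D15 and the cardiomyocytes, neighbours at the top of the order, differed by only 0.14. LRP2, an endocytic receptor that also takes up carrier-bound retinol, stood at 0.471 FPKM in hESC, 1.21 at D3, 17.2 at D4, 27.0 at D15 and 7.28 in the cardiomyocytes.

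Retinal is the branch point, and the enzymes on its sides behaved differently. DHRS3, which takes retinal back to retinol, stood at 12.1 FPKM in hESC, 4.56 at D1, 4.42 at D2, 1.63 at D3, 11.1 at D4, 5.41 at D5, 8.06 at D6, 8.38 at D8, 6.38 at D10, 13.0 at D15 and 14.9 in the cardiomyocytes. It was lowest at D3 and about as high in the cardiomyocytes as in hESC, 0.28 apart on the log2(FPKM + 1) scale. The D3 value was 1.05 below that of D2 (-1.05) and the D4 value 2.20 above that of D3. DHRS4, another reductase of the family, had the same low point, with 13.0 FPKM at D2, 1.92 at D3 and 8.88 at D4.

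ALDH1A2, which makes retinoic acid, had no single day of its own. It stood at 0.594 FPKM in hESC, 1.09 at D1, 1.45 at D2, 3.09 at D3, 3.52 at D4, 3.92 at D5, 5.01 at D6, 3.86 at D8, 5.19 at D10, 3.58 at D15 and 7.03 in the cardiomyocytes. The lowest value was in hESC and the highest in the cardiomyocytes, a difference of 2.33 on the log2(FPKM + 1) scale, while no step between neighbouring time points reached 2-fold. The levels from D4 to D15 lay between 3.52 and 5.19 FPKM. RDH10, the retinol dehydrogenase upstream of it, was higher than ALDH1A2 in each of the 11 columns, by 3.08 times (hESC) to 8.83 times (D5), with 1.83 FPKM in hESC, 19.7 at D3, 38.9 at D6, 13.0 at D15 and 34.7 in the cardiomyocytes. ALDH1A2 is also an epicardial marker. The other 7 genes of the epicardial and mesothelial list summed to 2.56 FPKM at D1, 49.1 at D10, 73.7 at D15 and 33.0 in the cardiomyocytes, where ALDH1A2 was highest. SEMA3D alone had 44.1 FPKM at D15. WT1 was highest at D6, TBX18, BNC1 and MSLN at D10, and TCF21, UPK3B and SEMA3D at D15. The part of epicardial cells in the ALDH1A2 value was not tested. The related enzymes differed from it in time. ALDH1A3 was highest at D3, with 3.51 FPKM, and ALDH1A1 in the cardiomyocytes, with 8.87 FPKM.

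The degrading enzymes split into 1 gene with a peak and 2 genes with low levels. CYP26A1 stood at 5.08 FPKM in hESC, 3.20 at D1, 29.9 at D2, 1.23 at D3, 1.10 at D4, 0.900 at D5, 0.933 at D6, 1.87 at D8, 0.934 at D10, 2.76 at D15 and 0.574 in the cardiomyocytes. The D2 value stood far above the other 10, at 2.88 over D1 and 3.79 over D3 (a step of -3.79) on the log2(FPKM + 1) scale. Being 2-fold or more above both neighbours at D2 was seen for 171 of 21715 genes (0.787%), among them CYP26A1 and RXRG, a partner receptor with 8.22 FPKM at D2. The order below D2, from D3 to D10, ran within 0.900 to 1.87 FPKM, values at or near the threshold for keeping a gene.
CYP26B1 stood at 1.61 FPKM in hESC and 1.69 in the cardiomyocytes, 1.05 at D15, and between 0.330 (D3) and 0.672 (D10) at the other time points. No step of CYP26B1 between neighbouring time points reached 2-fold. CYP26C1 was listed at 0 at D1 and D3 and reached at most 0.198 FPKM (D15). The depth behind values this low is not known, and no order is read from them. At D2 CYP26A1 was 66.7 times CYP26B1, and in the cardiomyocytes CYP26A1 was below CYP26B1, at 0.340 times its level.

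The cytoplasmic carriers were the most abundant genes of the group. CRABP2, which delivers retinoic acid to the receptors, stood at 266 FPKM in hESC, 221 at D1, 336 at D2, 263 at D3, 349 at D4, 255 at D5, 428 at D6, 506 at D8, 388 at D10, 179.8 at D15 and 202 in the cardiomyocytes. It thus stayed within a span of 1.49 on the log2(FPKM + 1) scale, with the highest values from D6 to D10. CRABP1, its paralog, stood at 105 FPKM in hESC, 32.0 at D1, 68.4 at D2, 54.8 at D3, 74.4 at D4, 137 at D5, 147 at D6, 44.6 at D8, 34.9 at D10, 5.94 at D15 and 9.42 in the cardiomyocytes. D5 and D6, the top of its order, differed by 0.10 on the log2(FPKM + 1) scale, and the following steps were -1.70 to D8 and -2.37 from D10 to D15. CRABP2 was above CRABP1 at every time point, by between 1.85 times (D5) and 30.3 times (D15). The ratio was highest where CRABP1 was lowest. FABP5, a fatty acid carrier that can also deliver retinoic acid, to PPARD, went from 62.8 FPKM in hESC to 601 at D1 and back to 70.7 at D4.

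RARB, the receptor that is itself a target of retinoic acid, stood under 1 FPKM until D2. Its values were 0.678 FPKM in hESC, 0.747 at D1, 0.528 at D2, 1.80 at D3, 13.9 at D4, 22.0 at D5, 25.5 at D6, 22.8 at D8, 14.6 at D10, 8.33 at D15 and 15.8 in the cardiomyocytes. Every time point from D4 on was above every time point before it. The D4 value was 2.41 above that of D3 on the log2(FPKM + 1) scale, and the cardiomyocytes were 3.32 above hESC. D5, D6 and D8 formed the plateau, with steps of 0.21 and -0.16 between them. An exon of RARB overlaps TOP2B on the opposite strand in GENCODE 29, and TOP2B had 51.8 to 107 FPKM over the course. Whether the counting used strand is not given in the sources used here. Among the other receptors RARA went from 4.73 FPKM in hESC to 20.4 in the cardiomyocytes and RARG from 21.5 to 5.64.

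**Figure D3:**
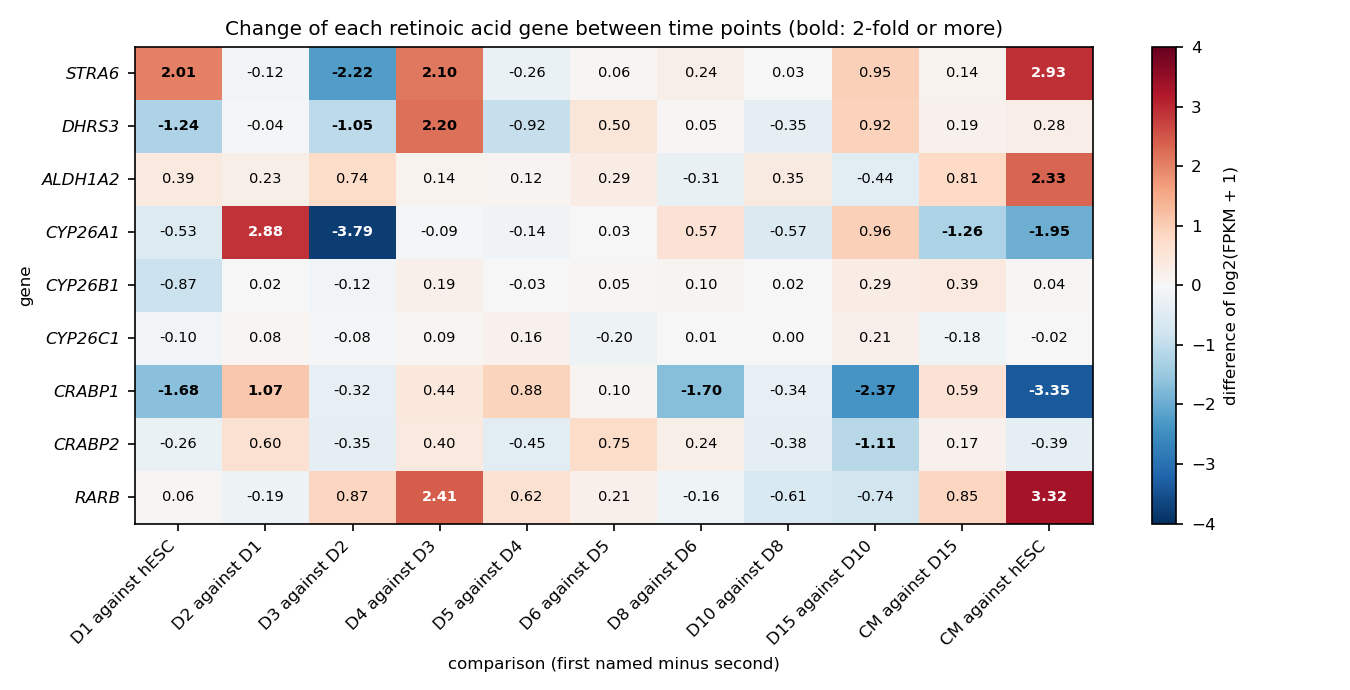
Difference of log2(FPKM + 1) between each time point and the one before it, and between cardiomyocytes (CM) and hESC in the last column, for the 9 genes. Red is higher in the time point named first, blue is lower, and bold numbers mark a 2-fold difference or more, as for RARB at D4 (2.41) and CYP26A1 at D2 (2.88) and D3 (-3.79).

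Calls of the 8 kept genes are set out by step. At D1 against hESC, 1 was higher (STRA6) and 2 were lower (CRABP1, by -1.68, and DHRS3, by -1.24), beside 12.0% of all kept genes higher and 11.1% lower. At D2 against D1, 2 were higher (CYP26A1, and CRABP1 by 1.07) and 0 lower, beside 2.66% and 2.34%. At D3 against D2, 0 were higher and 3 lower (CYP26A1, DHRS3, STRA6), beside 3.09% and 5.04%. At D4 against D3, 3 were higher (RARB, DHRS3, STRA6) and 0 lower, beside 6.79% and 6.3%. Because the D3 column was low for DHRS3 and STRA6, D4 was also set against D2, a comparison added after the values were seen. There RARB (3.29) and DHRS3 (1.16) were higher and CYP26A1 (-3.88) was lower, beside 7.07% and 8.31%, and STRA6 no longer differed 2-fold.

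Fewer of the genes were called from D4 to D10. At D5 against D4 and at D6 against D5, 0 of 8 were called in either direction, beside 3.68% higher and 1.26% lower of all kept genes at the former step and 1.21% and 6.18% at the latter. At D8 against D6 only CRABP1 was called, lower, beside 1.33% higher and 0.677% lower, and at D10 against D8 again 0, beside 1.16% and 1.11%. At D15 against D10, 0 were higher and 2 lower (CRABP1, and CRABP2 by -1.11), beside 6.32% and 9.51%. In the cardiomyocytes against D15, 0 were higher and 1 lower (CYP26A1, by -1.26), beside 7.23% and 4.07%. Across the whole course, cardiomyocytes against hESC, 3 were higher (ALDH1A2, RARB, STRA6) and 2 lower (CYP26A1, by -1.95, and CRABP1, by -3.35), beside 18.7% and 16.9%. Each of these is a single gene of its role. In the lists by role described below, 4 of 9 other receptors were higher and 1 lower (RARG). In synthesis and storage 5 of 13 were higher and 2 lower.

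Other genes of the pathway were counted from lists by role, with 63 kept genes in all: 13 of synthesis and storage, 7 carriers, 9 receptors, 11 co-regulators and 23 response genes known to be controlled by retinoic acid. The receptor list is one of nuclear receptors and not only of RAR and RXR, with PPARD, RORA and NR2C1 among its genes. At D4 against D3, 12 of 23 response genes were higher and 1 lower (RARRES2), with a median difference of 1.02 against 0.02 over all kept genes, of which 6.79% were higher and 6.3% lower. They included HOXB1, HOXA2, HOXB2, HOXB3, HOXB4, MEIS1, MEIS2, NR2F1, NR2F2, TSHZ1 and ZNF503. Because HOXB2, HOXB3 and HOXB4 share a locus in the authors' deposited sort tables, they may not count as fully separate genes here. Against D2 in place of D3, 12 were again higher and 2 lower, with a median of 1.04, beside 7.07% and 8.31% of all kept genes. At the same D4 step the other roles had 2 of 13 higher and 1 lower in synthesis and storage, 2 of 7 higher and 1 lower among carriers, 1 of 9 higher among receptors and 0 of 11 among co-regulators. Summed marker levels differed at this step too. From D3 to D4 the 6 fibroblast and stroma genes went from 18.3 to 213 FPKM, the 6 cardiac muscle genes from 46.4 to 118 and the 5 pluripotency genes from 857 to 463. Their part in the response-gene values was not tested.

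MEIS1 and MEIS2, partners of HOX proteins, were the most abundant of those named. MEIS1 had 0.976 FPKM in hESC, 22.7 at D3, 112 at D4 and 159 at D6, and MEIS2 had 19.0 at D3, 85.2 at D4 and 166 at D10. HOXB1, a direct target gene at the anterior end of its cluster, had 2.47 FPKM at D3, 15.7 at D4 and 1.06 at D15. NR2F1, a nuclear receptor of atrial cells, had 1.27 FPKM at D3, 8.10 at D4, 21.6 at D8 and 2.88 at D15. HOXB1 and NR2F1 were thus low again at D15, while MEIS2 was not. CDX1, a caudal homeobox gene, had an earlier high point at D1, with 98.4 FPKM against 0.253 in hESC, a day on which RARB stood at 0.747.

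**Figure D4:**
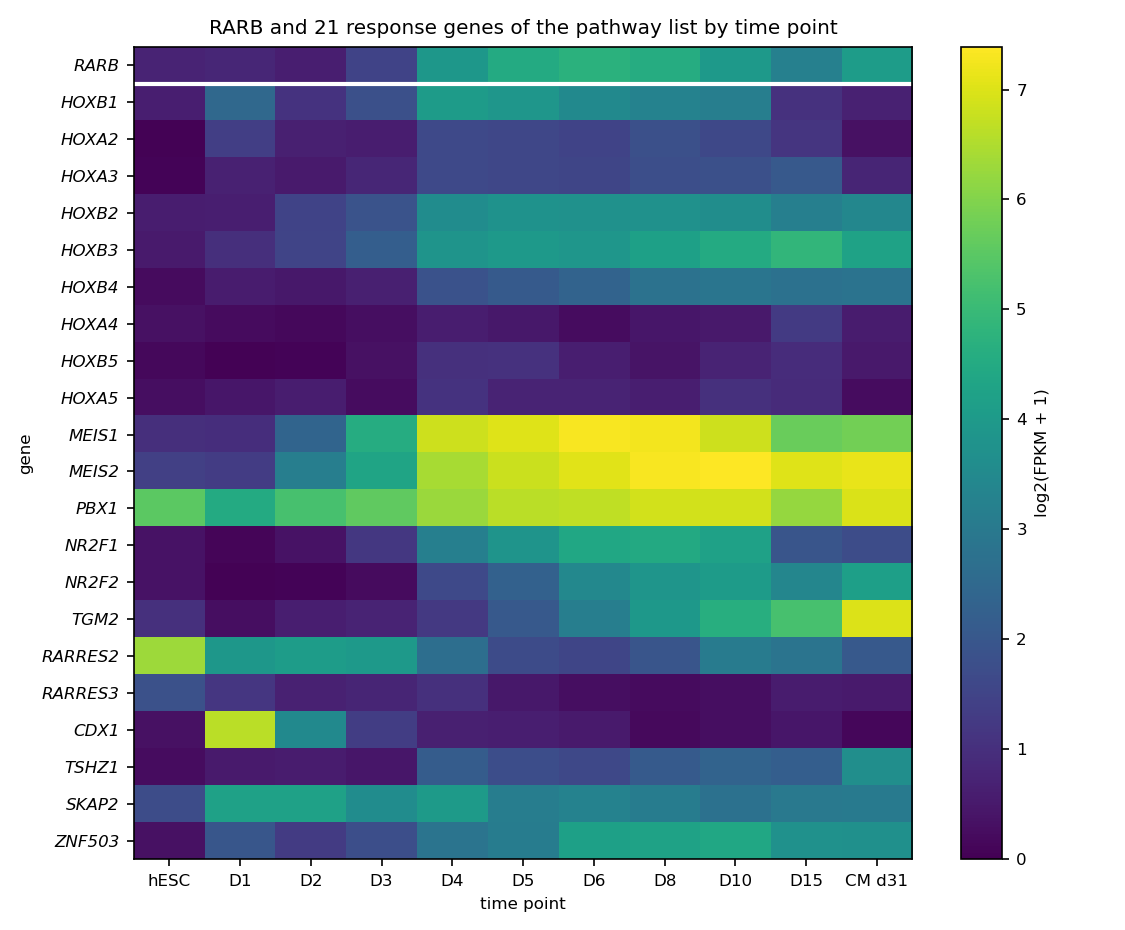
log2(FPKM + 1), as colour, of RARB (top row) and of 21 of the 23 kept response genes at the 11 time points, ordered as in the list. RARB, MEIS1, MEIS2, HOXB2, HOXB3, HOXB4 and NR2F2 are brighter from D4 on than before, HOXB1 is bright from D4 to D10 and dim again at D15 (1.06 FPKM), and CDX1 is brightest at D1 (98.4 FPKM).

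The other steps are given over the 63 genes together, beside the shares of all kept genes higher and lower. At D1 against hESC, 12 of the 63 were higher and 4 lower, beside 12.0% and 11.1%, among them FABP5 and LRAT, the enzyme that stores retinol as an ester, on the higher side and RARG and RORA on the lower. At D2 against D1, 3 were higher and 2 lower, beside 2.66% and 2.34%, and at D3 against D2, 3 and 5, beside 3.09% and 5.04%. D5 against D4 gave 1 and 0, beside 3.68% and 1.26%, and D6 against D5 gave 4 and 2, beside 1.21% and 6.18%. D8 against D6 gave 0 and 0, beside 1.33% and 0.677%, and D10 against D8 gave 1 and 0, beside 1.16% and 1.11%. For D15 against D10 the counts were 3 and 6, beside 6.32% and 9.51%, with HOXB1, MEIS1 and NR2F1 among the 6. In the cardiomyocytes against D15, 8 were higher and 2 lower, beside 7.23% and 4.07%, and against hESC 28 were higher and 6 lower, beside 18.7% and 16.9%. The 28 comprised 12 response genes, 5 of synthesis and storage, 5 co-regulators, 4 receptors (RARA, RXRA, RXRG, PPARD) and 2 carriers, LRP2 among them. TGM2, a transglutaminase that retinoic acid induces in many cells, went from 1.05 FPKM in hESC to 126 in the cardiomyocytes. DHRS9, a dehydrogenase of retinol, went from 0.0941 to 13.8 FPKM.

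The sorted cells were tested by the authors, whose tables list only genes with a q-value under 0.05, 1 FPKM value per population, the log2 fold change and the p- and q-values. A gene that is not listed cannot be read as equal in both populations. The D3 sort had 4648 listed genes, at most 27.9% of the genes over which its q-values ran, estimated as at least 16649. The D4 sort had 4825 listed genes, at most 36.3% of at least 13305. The shares of listed genes set beside the counts of both sorts rest on these estimates and are upper limits. The sorted receptors were read first. In the authors' deposited table ROR2 had 5.90 FPKM in the D3 negative and 72.0 in the D3 positive cells. PDGFRA had 8.28 FPKM in the D4 negative and 304 in the D4 positive cells of the authors' deposited table.

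In ROR2-positive cells of D3 the authors' deposited table listed 4 of the 9 genes, 3 higher and 1 lower, beside 27.9% of genes listed, 15.4% higher and 12.5% lower. CYP26A1 had the largest difference, with 1.97 FPKM in negative and 22.2 in positive cells (log2 fold change 3.50, q = 0.000375 in the authors' deposited table). RARB had 0.780 and 2.55 FPKM in the authors' deposited table (1.71, q = 0.000375), a difference at low levels. CRABP2 had 137 and 266 FPKM in the authors' deposited table (0.95, q = 0.000375). DHRS3 went the other way, with 5.63 and 3.28 FPKM in the authors' deposited table (-0.78, q = 0.00132). Only CYP26A1 was also 2-fold apart on log2(FPKM + 1). The unsorted D3 cells, in a table normalised apart, had 1.23 FPKM of CYP26A1 and 1.63 of DHRS3, below both populations. An unsorted value lay below both for 16.5% of the called genes in both tables, above both for 17.1% and between them for 66.4%. The sorted and unsorted CYP26A1 levels of D3 are not set on a common scale. The 22.2 FPKM of the positive cells lay nearer to the unsorted D2 value (29.9) than to the unsorted D3 value (1.23). Whether the D2 and D3 columns and the sort match in day was not tested, and the D2 peak of CYP26A1 and its step to D3 rest on these columns.

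In ROR2-positive, PDGFRa-positive cells of D4, the authors' deposited table listed 5 of the 9 genes, 2 higher and 3 lower, beside 36.3% of genes listed, 17.2% higher and 19.0% lower. RARB had 11.7 FPKM in PDGFRa-negative and 20.6 in PDGFRa-positive cells of the authors' deposited table (log2 fold change 0.81, q = 0.000269). CRABP2 had 138 and 236 FPKM in the authors' deposited table (0.78, q = 0.000269). The genes on the lower side took in 1 degrading enzyme, 1 carrier and the retinal reductase. CYP26A1 had 4.17 and 1.52 FPKM in the authors' deposited table (-1.46, q = 0.000269), the reverse of its direction in the D3 sort. CRABP1 had 53.4 and 20.5 FPKM (-1.38) and DHRS3 19.7 and 8.67 FPKM (-1.19) in the authors' deposited table, each with q = 0.000269. The D3 and D4 sorts separate different populations, and the difference between them was not tested. CRABP2 and RARB were on the higher side and DHRS3 on the lower side in both of the authors' deposited tables. ALDH1A2, CYP26B1, CYP26C1 and STRA6 were in neither. Unsorted D4 cells had 74.4 FPKM of CRABP1 and 349 of CRABP2, above both populations, as for 9.37% of called genes, and 1.10 of CYP26A1, below both, as for 29.3%.

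**Figure D5:**
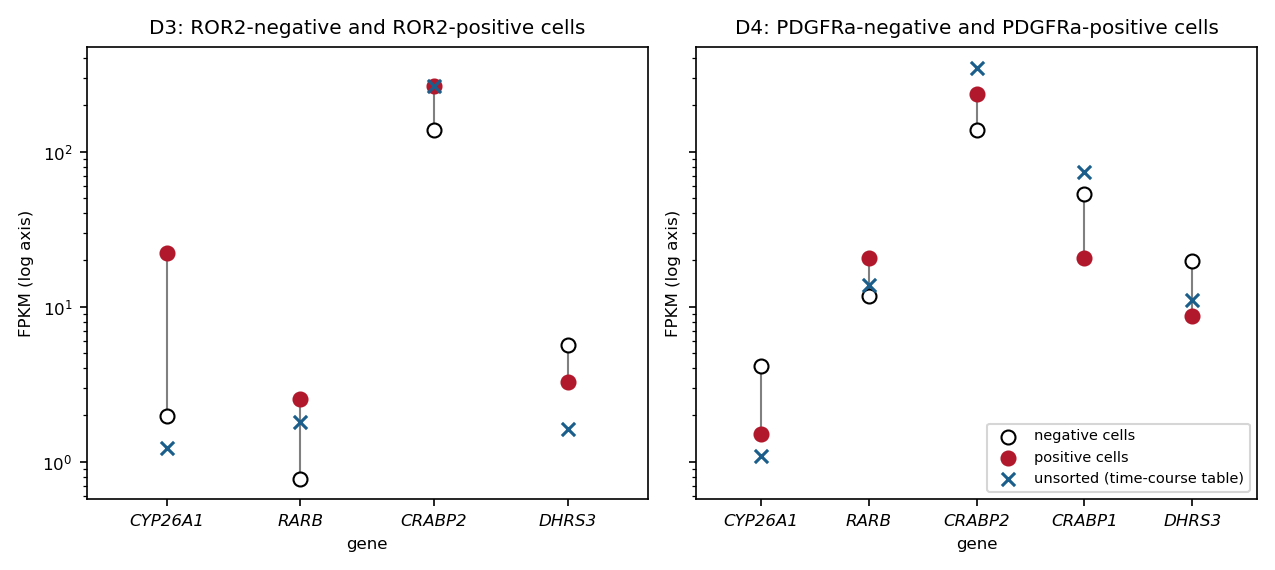
FPKM (log axis) of the retinoic acid genes listed in the authors' tables of the D3 sort (left) and D4 sort (right), in negative cells (open circles), positive cells (filled circles) and, from the time-course table, unsorted cells of the same day (crosses). CYP26A1 is higher in positive cells at D3 (22.2 against 1.97) and lower at D4 (1.52 against 4.17), while RARB and CRABP2 are higher in positive cells on both days.

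Markers of other cells moved with the sorts. In the authors' deposited table of D3, all 5 pluripotency genes were lower in the positive cells and 6 of 9 endoderm genes were listed, all higher, SOX17 with 0.664 and 12.5 FPKM. In the authors' deposited table of D4, 4 of 5 pluripotency genes were lower in the positive cells. Of the 6 listed endoderm genes there, 4 were lower in the positive cells, SOX17 (10.1 and 2.30 FPKM), FOXA2 (23.0 and 3.16), FOXA1 and CXCR4, and AFP and APOA1 were higher in the authors' deposited table. The endoderm markers SOX17, FOXA2, FOXA1 and CXCR4 thus lay on the same side as CYP26A1 in each sort. This was not particular to endoderm, since ISL1 of the second heart field list and OTX2 of the neural list did so too. Of 7 paraxial and lateral mesoderm genes, the authors' deposited tables listed 4 at D3, TBX6 and MESP1 among them, and 2 at D4, all higher in the positive cells. The part of any of these cells in the CYP26A1 values was not tested.

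Of the 63 other pathway genes, the authors' deposited table of D3 listed 22, 19 higher in the positive cells and 3 lower, ALDH1A1 and SKAP2 among them, beside 27.9% of all genes listed, 15.4% higher and 12.5% lower. They took in 4 of 9 receptors (RARA, RXRA, RXRG, NR2C1), all higher, and 9 response genes higher and 2 lower of 23. RXRG had 0.256 and 2.85 FPKM, and ALDH1A3, a synthesis enzyme, 3.68 and 11.7 in the authors' deposited table. The authors' deposited table of D4 listed 30, 18 higher and 12 lower, beside 36.3%, 17.2% and 19.0%. Here 4 receptors were lower (RARG, RXRA, PPARD, RORA) and 1 higher (RXRG), and 10 response genes were higher and 5 lower of 23, with NR2F2, RARRES3 and SKAP2 among the lower ones. RDH10 had 4.97 and 33.5 FPKM (log2 fold change 2.75, q = 0.0403) and LRP2 3.66 and 46.1 FPKM in the authors' deposited table of D4. Of synthesis and storage, that table listed 3 genes higher in PDGFRa-positive cells and 2 lower (RDH14, LRAT), and of the carriers 3 higher and 0 lower. MEIS1 had 33.6 and 187 FPKM and HOXB1 0.593 and 8.63 in the authors' deposited table of D4. HOXB2, HOXB3 and HOXB4 share 1 locus in the authors' deposited tables, so their values may not be fully separate.

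On hg19, the build of the sort tables, CYP26A1 (ENSG00000095596.7) lies at chr10:94833232-94837647, CRABP1 (ENSG00000166426.7) at chr15:78632666-78640572 and CRABP2 (ENSG00000143320.4) at chr1:156669398-156675608. RARB (ENSG00000077092.14) lies at chr3:25215823-25639423 and DHRS3 (ENSG00000162496.4) at chr1:12627939-12677737. These are whole-gene loci from the authors' deposited tables, counted from 1, and the values refer to whole genes, without a split into exons, introns or isoforms. In GENCODE 29, STRA6 shares exonic sequence with CCDC33 on the opposite strand (0.314 to 1.88 FPKM over the course) and ALDH1A2 with AQP9 (0.0179 to 0.310 FPKM), both low beside their partners' highest values. ALDH1A2 and CRABP1 also share some with unnamed genes on the opposite strand, CYP26A1 and CYP26C1 with 1 on the same strand, and CYP26B1, CRABP2 and DHRS3 overlap no other gene's exons.

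The profiles of the 9 genes were alike in few pairs. Across the 11 time points, which share the 1 cell line and the pooling of libraries, ALDH1A2 and RARB had r = 0.866 (Pearson, on log2(FPKM + 1)) and rho = 0.818 (Spearman), the highest r of the 28 pairs of the 8 kept genes. CYP26B1 and DHRS3 had r = 0.773 and rho = 0.900. The lowest r was that of CYP26A1 and RARB, with r = -0.717 and rho = -0.791, and the lowest rho that of ALDH1A2 and CYP26A1, with r = -0.702 and rho = -0.864. The paralogs CRABP1 and CRABP2 had r = 0.567. These are descriptions of neighbouring points on 1 course, which are not independent, and have no p-value.

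Among 11566 other protein-coding genes reaching 5 FPKM, the 3 profiles most like each gene by Pearson r over the 11 columns were named. RARB was closest to RGL1 (0.981), SFRP5 (0.967), a secreted WNT antagonist, and HOXB2 (0.967), of which HOXB2 is itself on the response list. CYP26A1 was closest to TBX6 (0.930), a transcription factor of early mesoderm with its own high point at D2 (9.94 FPKM), SPATS2L (0.922) and APOL3 (0.914). ALDH1A2 was closest to TIPARP (0.974), SMARCA1 (0.964) and SMAD6 (0.964), an inhibitor of BMP signalling. CRABP1 was closest to B3GALT1 (0.962), TFAP2C (0.944) and TROAP (0.944), and CRABP2 to ORMDL3 (0.890), AGBL5 (0.887) and SPTSSB (0.871). DHRS3 was closest to EPHX2 (0.956), CC2D1A (0.945) and LYRM9 (0.942), 3 genes that shared its low point at D3, with 3.73, 4.78 and 0.477 FPKM there. STRA6 was closest to TMEM185B (0.973), ENOSF1 (0.956) and DNAJC16 (0.934), also low at D3. By Spearman rank 6 of the 21 stayed among the closest 3, so the names rest on the measure used. CYP26B1 and CYP26C1 did not reach 5 FPKM and were not matched.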

How the data were processed

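The 30 libraries (15 groups of 2) were made after ribosomal RNA removal from 500 ng of RNA, amplified for 10 PCR cycles and read from both ends over 100 nt, per the labels' protocols. Bowtie2 2.1.0.0, TopHat2 2.0.8b, Cufflinks and hg19 are named in the submitters' processing notes. Annotation, strand setting, depth and column scaling were not given in the sources used here. The deposited time-course table holds 1 FPKM value per gene and time point, a unit taken from this pipeline and the values, since the header names only the time points. In the 2 deposited sort tables, per the file headers, the authors give FPKM for both populations and their log2 fold change. Per the file headers the authors also give a linear ratio, a score (their test statistic), and a p-value with its q-value. Starts in the sort tables were raised by 1, because 1922 loci then match GENCODE 29 in length, against 59 as written.

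From the deposited FPKM values log2(FPKM + 1) was computed for every gene that reached 1 FPKM anywhere in the course, and a difference of at least 1 was called. For the sorts the authors' calls (q under 0.05) were used, and no test was run here. All 9 genes are named, with up to 30 pathway genes of the largest span within a role, those called in a sort, and the 3 genes most like each of the 9 that reached 5 FPKM. HOXA2 falls outside this rule and is named where a count is spelled out. The genes, lists and comparisons were chosen with earlier results of these data known. The counts cover whole lists, and values of some of their genes are not reported here. Promoter sequences are from RefSeq on GRCh38.p14. The calling step was tested on simulated data, with planted differences larger than 2-fold in values of at least 5 FPKM. That test does not cover calls at lower levels. Alternatives were a pseudocount of 0.1, no filter, columns rescaled by median ratio, a q-value under 0.01, a further 2-fold threshold in the sorts, rank correlation and other spacers. Python 3.11.15, pandas 2.3.3, numpy 2.4.6 and matplotlib 3.10.9 were used.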

Additional observations from a re-analysis of the deposited data

How the results depend on the processing

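No paired analysis was possible because each deposited column pools both libraries of a group, and for the same reason no library could be left out. Without the filter on low values, and with q-values under 0.01 in the sorts, the counts stayed within 1.5 times. With a pseudocount of 0.1 in place of 1, 19 of 22 counts of retinoic acid genes by step stayed, and 10 of 22 for the pathway lists, since low values then count more and more of all genes pass (for example 14.6% higher at D4 against D3). The exceptions for the retinoic acid genes were 2 higher at D3 against D2 (0 before), 1 lower at D5 against D4 (0 before) and 2 higher at D15 against D10 (0 before). For the pathway lists they were 12 lower at D1 against hESC (4 before), 7 higher and 5 lower at D2 (3 and 2 before), 7 higher at D3 (3 before), 5 lower at D4 (3 before), 2 higher and 3 lower at D5 (1 and 0 before), 1 higher and 1 lower at D8 (0 and 0 before), 2 higher at D10 (1 before), 6 higher at D15 (3 before) and 8 lower in the cardiomyocytes against D15 (2 before). With columns rescaled by factors from 0.972 to 1.07, 1 retinoic acid gene was higher at D15 against D10 (0 before), and the pathway lists had 0 higher and 1 lower at D5 against D4 (1 and 0 before). With D4 set against D2 in place of D3, chosen after seeing the data, 1 retinoic acid gene was lower (0 before) and 7 pathway genes were lower (3 before). Requiring a 2-fold difference as well in the sorts left 1 gene higher and 0 lower at D3 (3 and 1 before) and 0 higher at D4 (2 before). With spacers of 1 or 2 bases, 0 promoter windows of these genes held the repeat (2 before). The depth behind the values is unknown, so the precision of low levels, as for CYP26B1 and CYP26C1, cannot be given.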

Other observations

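The direct repeat with a spacer of 5 bases was found in promoters of 29 genes in all, of which 11 reached 1 FPKM in the time course. At D4 against D3, 2 of the 11 were 2-fold higher and 0 lower, with a median difference of -0.09 on the log2(FPKM + 1) scale against 0.02 over all kept genes, of which 6.79% were higher and 6.3% lower. The higher ones were RARB and COL24A1, a fibrillar collagen with 0.394 FPKM at D3 and 2.22 at D4. CYP26A1, the other gene shown with this repeat, had 1.23 FPKM at D3 and 1.10 FPKM at D4. Of the others, chosen here after their values were seen, CYB5R2 (8.45 and 6.38 FPKM), PANK2 (32.9 and 22.2) and PHF8 (13.4 and 13.7) did not differ 2-fold at that step.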
